A study of Mus musculus with 2 samples.

Results

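The Hox genes of the clusters Hoxa, Hoxb, Hoxc and Hoxd were examined in mouse embryonic stem (ES) cells that live on Baf53a or on Baf53b. Members were all gene probes on both arrays whose RefSeq accession belongs to a gene named Hoxa, Hoxb, Hoxc or Hoxd with a number. This gave 39 Hox genes with 43 probes, out of 20823 named genes and 39411 probes usable on each array. All 39 genes of the 4 clusters had at least 1 probe. The cells were Baf53a cKO ES cells, derived from E14 ES cells and grown in medium with LIF. In them both alleles of Baf53a are mutated and an inducible, CRISPR-resistant Baf53a is shut off by tetracycline (Tet). Baf53a is an actin-related subunit of the BAF chromatin remodelling complex, and Baf53b is its counterpart in neurons. One group, called here Baf53a-expressing cells, was transfected with the expression vector for Baf53a, and the other, Baf53b-expressing cells, with that for Baf53b; they are also written as cells with Baf53a and with Baf53b. Tet at 1 μg/mL was added 48 h after transfection and kept for 6 days, so the inducible Baf53a was shut off in both groups alike. Both groups come from a cell line that is a single clone, and cells without the vectors or without Tet were not analysed here.

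Hox genes encode homeodomain transcription factors that give cells along the body axis, the limbs and the genital tract their positional identity. They lie in clusters in which the order of the genes matches the order of their use: genes at the 3′ end act early and towards the head, genes at the 5′ end late and towards the tail and the limb tips. In ES cells the clusters are textbook targets of the Polycomb repressive complexes, PRC2, which methylates lysine 27 of histone H3, and PRC1, which ubiquitinates histone H2A, and their transcription there is low until differentiation signals such as retinoic acid remove the repression. Trithorax proteins act the opposite way, and BAF complexes oppose Polycomb at many loci. In ES cells, as the authors describe earlier work, the BAF subunit Brg1 takes part in regulating how PRC2 functions. Whether BAF opposes Polycomb at the Hox clusters of these cells was not examined here. Polycomb occupancy and histone marks were not measured on these arrays.

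RNA of each group was hybridised in 1 colour to 1 array, so there are no replicates and nothing could be tested. The arrays took positions 3 and 4 of a single slide, scanned once, and with 1 array per group a difference between arrays and a difference between cells cannot be told apart. The processed signal of a spot is its brightness after the authors' background subtraction and spatial detrending. Signals were put on a log2 scale on which the 75th percentile of each array, a signal of 1161 with Baf53a and 1128 with Baf53b, is 0. The scanner software flags spots as well above background, and a probe was counted so where the flag stood on 50% of its spots or more. The lowest signal so marked was 8.45 with Baf53a and 9.75 with Baf53b, which sets the floor of what could be measured. Each probe binds with its own efficiency, so a probe is compared only with itself on the other array, and differences are given as Baf53b- minus Baf53a-expressing cells. Errors printed as ± are the error that the scanner software estimates for a single spot or probe, not a spread between cultures.

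Hox transcripts were mostly measurable, and no measured Hox probe differed by 2-fold between the groups. Of the 43 Hox probes, 37 (86.0%) were well above background on both arrays, a share that was 74.2% over all probes. They stand for 36 of the 39 genes. A further Hox probe, of Hoxd12, was well above background in Baf53a-expressing cells only, as were 0.959% of all probes, and 1, of Hoxa13, in Baf53b-expressing cells only, as were 2.18% of all probes. The remaining 4 probes were on neither array well above background, and Hoxc8 and Hoxd3 had no other probe. Because these are whole cultures, fewer cells that use a gene and less RNA of it per cell cannot be told apart.

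Differences between the groups were small. Of the 37 Hox probes, 0 were 2-fold apart in either direction, and of all 29247 probes well above background on both arrays, 0.137% were higher in Baf53b-expressing cells by 2-fold or more and 0.116% lower by as much. At a difference of 0.5 on the log2 scale, a threshold chosen with the values known, 1 of the 37 Hox probes was higher, that of Hoxd9, and 0 were lower, against 2.27% higher and 0.783% lower over all probes. The 37 differences ran from -0.32, at Hoxa9, to 0.69, at Hoxd9, with an SD of 0.213 across probes, which was 0.206 over all probes. In Baf53b-expressing cells 16 of them were higher and 21 lower, and 49.7% of all probes were higher by any amount. The median of the Hox probes was -0.02, and it turned to 0.04 with background correction by normexp and to 0.07 among the 15 Hox probes left by a stricter filter on dim probes. In 24 of the 37 probes (64.9%) the log2 difference was under 0.2 either way, a share of 77.4% over all probes and of 73.7% over the probes of the brightness range that holds the Hox probes.

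**Figure D1:**
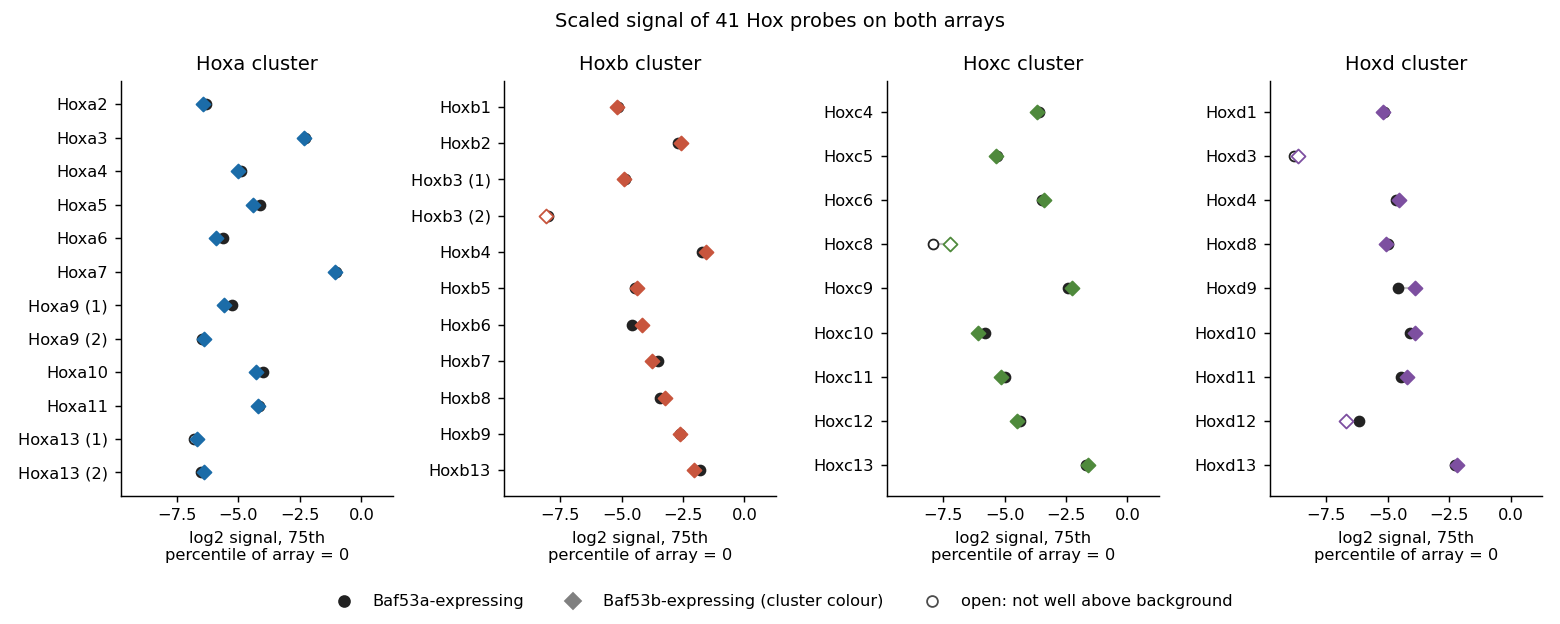
Log2 processed signal of 41 of the 43 Hox probes, with the 75th percentile of each array at 0, in Baf53a-expressing (black circles) and Baf53b-expressing cells (diamonds in the colour of the cluster), 1 panel per cluster with genes from the 3′ end at the top, and numbers in brackets for genes with several probes. Open symbols mark values that were not well above background, and at 36 of the 41 probes both symbols are filled and lie close together, from 0.32 lower to 0.69 higher in Baf53b-expressing cells.

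The Hoxa cluster, on chromosome 6, had 11 genes and 14 probes, of which 12 were well above background on both arrays. In Baf53b-expressing cells 3 of these were higher and 9 lower, with a median of -0.08 that kept its sign under every scaling and filter tried. The probe of Hoxa2, which specifies the second pharyngeal arch, had signals of 14.5 and 13.1 in Baf53a- and Baf53b-expressing cells, a difference of -0.11. Hoxa3, needed for the thymus and parathyroid, had signals of 239 and 226, a difference of -0.04. Hoxa4, a gene of the cervical region, had signals of 38.5 and 34.4, a difference of -0.12. Each of these differences was smaller than the error of its own probe.

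In the middle of the cluster Hoxa5, which takes part in lung and cervicothoracic development, had a signal of 67.1 with Baf53a and 53.5 with Baf53b, a difference of -0.29 ± 0.22. Its neighbour Hoxa6 had signals of 23.3 and 18.7, a difference of -0.27 ± 0.29. Hoxa7 had signals of 572 and 540, a difference of -0.04. These 3 neighbours were all lower in Baf53b-expressing cells, Hoxa5 by more than the error of its probe, Hoxa6 and Hoxa7 by less. With normexp Hoxa5 was at -0.07 and Hoxa6 at -0.03, both within the error.

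At the 5′ end Hoxa10, a gene of the lumbar vertebrae and the uterus, had signals of 72.3 and 57.4, a difference of -0.29 ± 0.22 that was -0.04 with normexp. Hoxa9, known from blood progenitors and leukaemia, had 2 probes, the first with signals of 30.4 and 23.6 (difference -0.32 ± 0.27) and the second with 12.8 and 13.3 (0.09 ± 0.37). The first probe gave the lowest of all Hox differences, and the signs of the pair depended on the processing: with normexp both were positive (0.06 and 0.12) and under quantile normalization both negative (-0.43 and -0.05). Hoxa11, which shapes the forearm and lower leg, had signals of 64.2 and 61.4, a difference of -0.02. Hoxa13, which shapes the hand, foot and hindgut, lay near the floor: its second probe had signals of 12.5 and 13.3, a difference of 0.13 ± 0.39. The first probe of Hoxa13, at 10.3 and 10.8, was well above background in Baf53b-expressing cells only. It was 1.09-fold higher there, a difference of 0.12 ± 0.45 on the log2 scale. For the bound of such a probe the scaled bright signal was divided by the larger of 2 values. These were the dim signal and the lowest signal marked as well above background on the dim array. At Hoxa13 the dim signal was the larger, so the bound is the measured difference and not a minimum. Under quantile normalization it turned to -0.03 on the log2 scale, from 0.12.

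The Hoxb cluster, on chromosome 11, had 10 genes and 11 probes, 10 of them well above background on both arrays, of which in Baf53b-expressing cells 5 were higher and 5 lower. Its median was 0.04 and turned negative under quantile normalization, cyclic loess, centring on the median, a weaker detection flag and no filter. Hoxb1, which marks a single hindbrain segment and answers early to retinoic acid, had signals of 33.3 and 31.3 in Baf53a- and Baf53b-expressing cells, a difference of -0.05. Hoxb2, which it activates in the hindbrain, had signals of 178 and 190, a difference of 0.14. The first probe of Hoxb3 had signals of 39.8 and 37.3, a difference of -0.05. The anterior Hoxb genes thus differed by less than the errors of their probes.

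Neighbours in the middle of this cluster went opposite ways. Hoxb6 had a signal of 49.4 ± 5.4 with Baf53a and 62.2 ± 6.6 with Baf53b, a difference of 0.37 ± 0.22 and the second highest among the Hox probes. Hoxb7, the next gene, had signals of 102 and 83.2, a difference of -0.25 ± 0.21. Hoxb8, used to immortalise myeloid progenitors in culture, had signals of 109 and 122, a difference of 0.20 ± 0.21. Hoxb6 and Hoxb7 differed by more than the errors of their probes and Hoxb8 by less.

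The other Hoxb genes, Hoxb13 apart, differed by less than the errors of their probes. Hoxb4, known for expanding blood stem cells, had signals of 351 and 377, a difference of 0.15. Hoxb5 had signals of 52.9 and 54.6, a difference of 0.09 that was -0.001 under cyclic loess. Hoxb9, which acts in the thoracic region, had signals of 188 and 182, a difference of -0.01. Hoxb13, which lies apart from the rest at the 5′ end and acts in the prostate and tail, was lower, with signals of 335 ± 34 and 272 ± 27 and a difference of -0.26 ± 0.20.

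The Hoxc cluster, on chromosome 15, had 9 genes with 1 probe each, 8 of them well above background on both arrays, and all 8 differed by less than the error of their probes. In Baf53b-expressing cells 3 were higher and 5 lower, with a median of -0.05 that was 0.01 with normexp and 0.07 under the stricter filter. Hoxc4 had signals of 95.3 and 88.1 in Baf53a- and Baf53b-expressing cells, a difference of -0.07. Hoxc5 had signals of 29.3 and 27.9, a difference of -0.03. Hoxc6, a thoracic gene, had signals of 105 and 106, a difference of 0.06. Hoxc8, which acts in brachial motor neurons, was not well above background in either group.

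The posterior Hoxc genes spread from -0.27 to 0.14. Hoxc9, which sets thoracic motor neuron identity, had signals of 220 and 235, a difference of 0.14. Hoxc10, which acts at lumbar level, had signals of 20.6 and 16.7, a difference of -0.27 ± 0.31 that was -0.06 with normexp. Hoxc11 had signals of 36.2 and 32.3, a difference of -0.12. Hoxc10 and Hoxc11 are dim here, and their errors are wider than their differences. Hoxc12 had signals of 55.9 and 49.4, a difference of -0.14. Hoxc13, needed for hair and nails, had signals of 364 and 375, a difference of 0.09.

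The Hoxd cluster, on chromosome 2, held the largest difference of any Hox gene and the only Hox probe seen in Baf53a-expressing cells alone. It had 9 genes with 1 probe each, of which 7 were well above background on both arrays, 5 of them higher with Baf53b and 2 lower. Their median of 0.09 kept its sign under every scaling and filter tried. Hoxd9, a gene of the lumbar region and the forelimb, had a signal of 48.2 ± 5.4 with Baf53a and 75.6 ± 7.9 with Baf53b. On the scaled log2 axis these are -4.59 and -3.90, a difference of 0.69 ± 0.22, or 3.14 times the error of the probe. With normexp the difference was 0.31, and under the scalings tried it lay between 0.61 and 0.69. Hoxd12, a limb gene, had a signal of 16.1 ± 3.0 with Baf53a and 11.01 ± 2.7 with Baf53b. In Baf53b-expressing cells it was not well above background, and it was 1.42-fold lower there. On the log2 scale this was 0.51 with an error of 0.45, the bound again being the measured difference and not a minimum. The bound was 0.65 under quantile normalization and 0.02 with normexp.

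Hoxd9, Hoxd12 and Hoxd3 stand for the 3 outcomes in this cluster, the largest difference, detection in 1 group and detection in neither, and their promoters are therefore shown. Each runs from 250 bases before the start of the gene to 50 bases after it, as RefSeq gives it on GRCm38.p6, plus strand, 5′ to 3′, with every CG dinucleotide in capitals. Hoxd12 lies at chr2:74674763-74675062, Hoxd9 at chr2:74697513-74697812 and Hoxd3 at chr2:74711743-74712042.
Hoxd12: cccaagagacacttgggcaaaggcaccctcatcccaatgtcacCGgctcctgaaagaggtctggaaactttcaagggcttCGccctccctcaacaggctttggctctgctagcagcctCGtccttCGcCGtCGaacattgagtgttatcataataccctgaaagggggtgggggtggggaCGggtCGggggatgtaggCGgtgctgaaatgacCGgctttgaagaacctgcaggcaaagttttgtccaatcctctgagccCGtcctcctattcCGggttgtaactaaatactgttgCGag
Hoxd9: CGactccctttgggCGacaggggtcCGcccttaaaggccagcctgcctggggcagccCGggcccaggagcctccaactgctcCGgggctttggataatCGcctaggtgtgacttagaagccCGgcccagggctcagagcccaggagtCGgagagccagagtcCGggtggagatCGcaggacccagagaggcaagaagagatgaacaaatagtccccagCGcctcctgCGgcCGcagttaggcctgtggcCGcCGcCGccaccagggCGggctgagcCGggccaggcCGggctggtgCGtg
Hoxd3: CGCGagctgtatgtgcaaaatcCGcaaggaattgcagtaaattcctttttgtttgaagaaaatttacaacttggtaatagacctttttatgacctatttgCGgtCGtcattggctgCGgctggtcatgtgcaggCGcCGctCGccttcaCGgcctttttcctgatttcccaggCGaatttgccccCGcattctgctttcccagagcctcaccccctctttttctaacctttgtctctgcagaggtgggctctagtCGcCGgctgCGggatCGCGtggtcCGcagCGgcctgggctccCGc
The Hoxd9 window holds 20 CG dinucleotides and 68.3% G and C, the Hoxd3 window 20 and 54%, and the Hoxd12 window 13 and 55%. Clusters of CG dinucleotides are a common feature of Polycomb target promoters in ES cells, but these counts alone do not mark a promoter as such a target. Of the 32851 promoters in the table, whose median is 7, 26.5% hold at least 20 and 37.9% at least 13. The letters TATAAA, searched on both strands, are in none of the 3 windows and in 13.6% of all promoters. The table holds promoters of 22 of the 39 Hox genes (56.4%), too few for a statement on Hox promoters as a set. Among those it lacks are Hoxa4, Hoxb2, Hoxb3, Hoxb5, Hoxb6, Hoxb7, Hoxb9, Hoxb13, Hoxc5, Hoxc6, Hoxc8, Hoxc9, Hoxc10, Hoxc11, Hoxc12 and Hoxc13.

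Hoxd10 and Hoxd11, which follow Hoxd9 towards the 5′ end, were higher by smaller amounts, Hoxd10 by less than the error of its probe. Hoxd12, the next gene beyond them, was lower. Hoxd10, a gene of the limb and of lumbar motor neurons, had signals of 67.3 with Baf53a and 75.4 with Baf53b, a difference of 0.21 ± 0.21. Hoxd11, which acts with Hoxa11 in the forearm, had signals of 52.2 and 61.1, a difference of 0.27 ± 0.23 that was 0.13 with normexp. Hoxd8, on the other side, had signals of 36.3 and 33.7, a difference of -0.06. Hoxd9, Hoxd10 and Hoxd11, which lie side by side, were thus all higher in Baf53b-expressing cells, and they were so under every scaling tried and with normexp.

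The outer Hoxd genes differed by less than the errors of their probes. Hoxd1, known from pain-sensing neurons, had signals of 32.3 and 30.9, a difference of -0.02. Hoxd4 had signals of 46.3 and 47.95, a difference of 0.09. Hoxd13, the digit gene at the 5′ end, had signals of 244 and 249, a difference of 0.07.

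**Figure D2:**
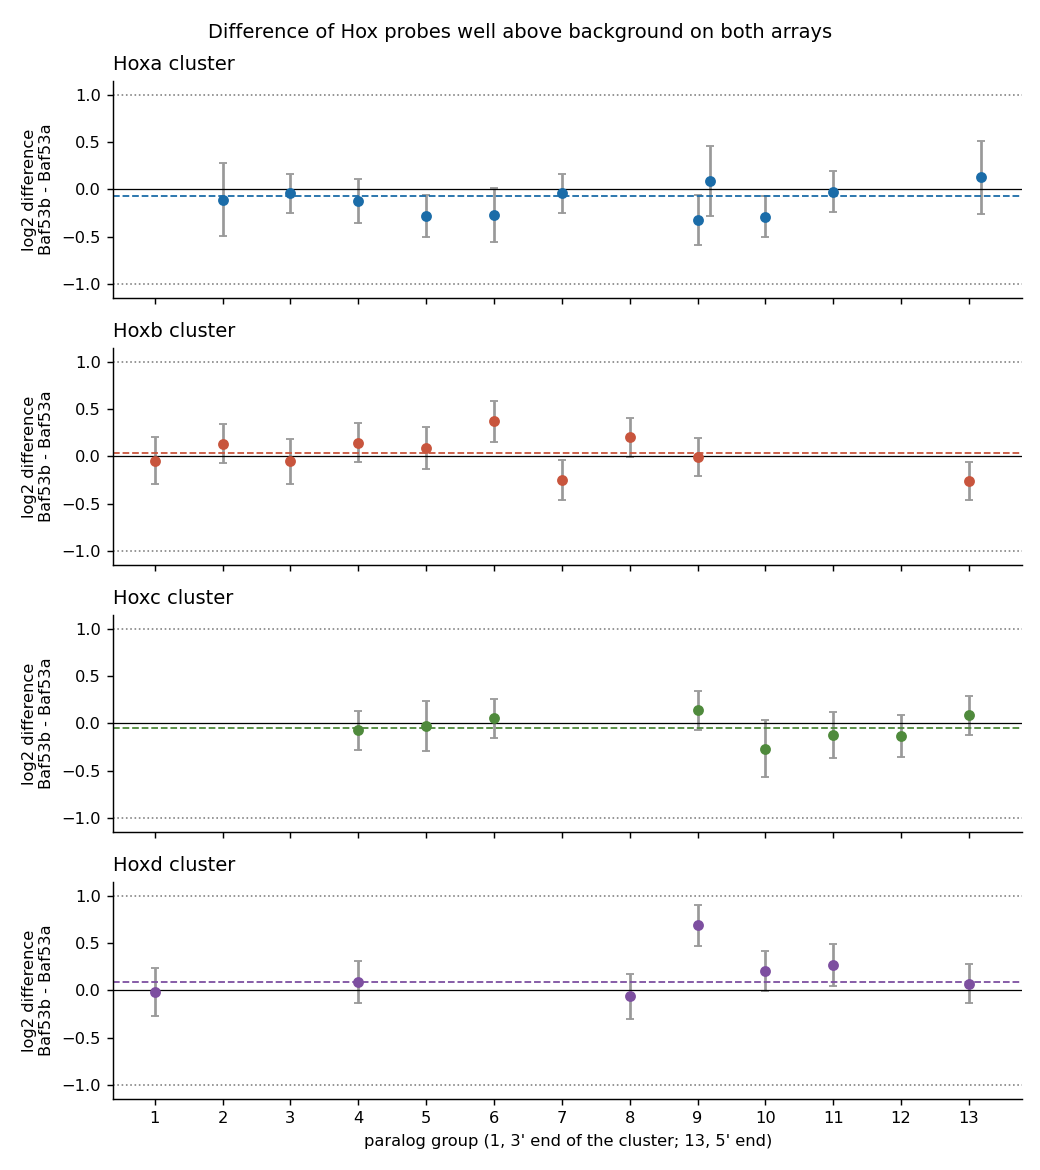
Log2 difference, Baf53b- minus Baf53a-expressing cells, of 36 of the 37 Hox probes well above background on both arrays, by paralog group from the 3′ end (1) to the 5′ end (13), 1 panel per cluster, with bars for the error the scanner software gives and a dashed line at the cluster's median, which changes sign under some settings for Hoxb and Hoxc. All points lie inside the dotted lines at 2-fold, and Hoxd9 at 0.69 and Hoxa9 at -0.32 are the extremes.

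Higher and lower probes were mixed along the clusters. Grouped by paralogs, the anterior genes (1 to 3) gave 2 higher and 5 lower probes, the central genes (4 to 8) 6 higher and 8 lower, and the posterior genes (9 to 13) 8 higher and 8 lower. Their medians were -0.04, -0.03 and 0.03. The anterior and central medians turned positive with normexp and under the stricter filter, and the posterior median turned negative under quantile normalization, cyclic loess, centring on the median and with 1 value per gene. Of the 4 probes on neither array 3 are anterior. On both arrays 7 of 10 anterior, 14 of 15 central and 16 of 18 posterior probes were well above background, against 74.2% of all probes. Counted by gene, 7 of 8 anterior, 14 of 15 central and 15 of 16 posterior genes had such a probe.

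Paralogs are the descendants of 1 ancestral gene in different clusters. In paralog group 9 the 5 probes ran from -0.32, at the first probe of Hoxa9, to 0.69, at Hoxd9, and with normexp these came to 0.06 and 0.31. In group 10, Hoxa10 and Hoxc10 were at -0.29 and -0.27 and Hoxd10 at 0.21, and with normexp they were at -0.04, -0.06 and 0.18. In group 6, Hoxa6 was at -0.27 and Hoxb6 at 0.37, and with normexp at -0.03 and 0.25. Group 4, with all 4 clusters represented, lay between -0.12 and 0.15.

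Most Hox probes were dim, and over all probes the dim ones differed most. The 29247 measured probes were split by signal into 5 equal groups, group 1 the dimmest and group 5 the brightest, and these held 14, 13, 9, 1 and 0 of the 37 Hox probes. In the same order the SD of the difference over all probes was 0.324, 0.208, 0.154, 0.124 and 0.108. Differences of at least 0.5 either way made up 11.4% of group 1, 2.72% of group 2, which holds Hoxd9, and 0.137% of group 5. The median over all probes also ran from 0.10 in group 1 to -0.06 in group 5, with 0.05 in the group of Hoxd9. Over the 4 groups that hold Hox probes, 56.0% of probes were higher in Baf53b-expressing cells, the SD was 0.220 and the median 0.02. Of the 37 Hox probes, 28 (75.7%) differed by less than their own software error, and of all probes 81.3%.

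**Figure D3:**
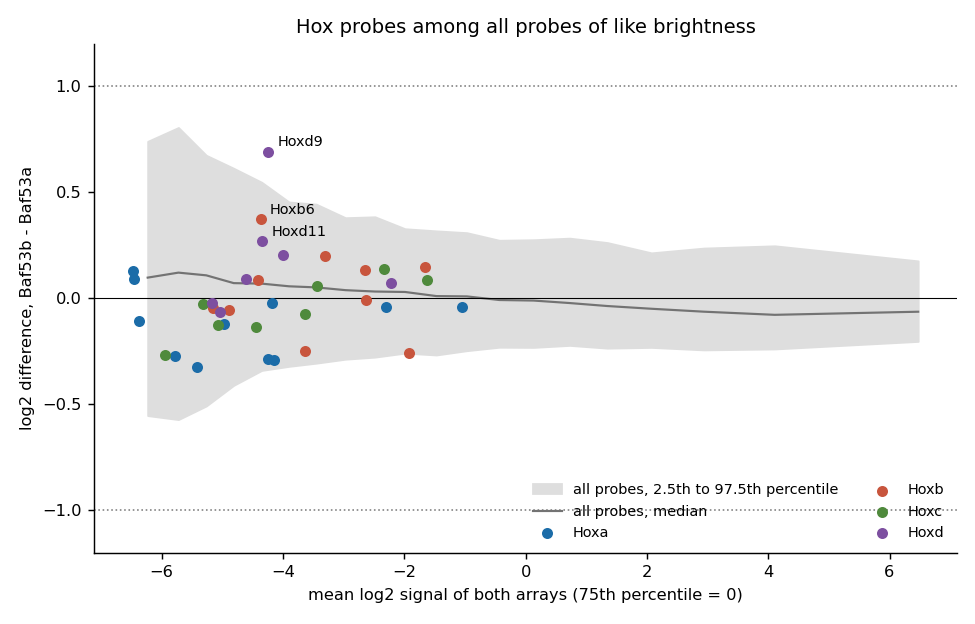
Log2 difference, Baf53b- minus Baf53a-expressing cells, against the mean log2 signal of both arrays (75th percentile at 0) for 36 of the 37 Hox probes, coloured by cluster, over the band that holds the middle 95% of all probes of like brightness, with dotted lines at 2-fold. Of the points drawn, Hoxd9 (0.69) lies above the band.

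Spots that repeat a probe give a measure of spot noise within an array. The probe of Hoxa11 is printed 10 times. Its signals in Baf53a-expressing cells ran from 61.7 to 68.8 with a median of 63.9 over the 8 usable spots, and in Baf53b-expressing cells from 53.6 to 71.8 with a median of 60.8 over 10. The range of the second group holds that of the first. The probe of Hoxb1, also printed 10 times, ran from 31.4 to 39.5 with a median of 32.5 in Baf53a-expressing cells, and from 24.7 to 37.8 with a median of 31.5 in Baf53b-expressing cells, so that the spots of both groups overlap. A difference between single spots has an SD of 0.128 at Hoxa11 and 0.222 at Hoxb1 on the log2 scale. Over all 324 gene probes printed at least 5 times this was 0.132, and in the brightness group that holds Hoxd9 it was 0.119. Hoxd9, like every Hox probe but these, has a single spot per array, and spot noise does not include the spread between cultures.

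Genes with several probes show how far a value depends on the probe. Hoxa9, Hoxa13 and Hoxb3 were among the genes with 2 probes. The second probe of Hoxb3 was not well above background on either array, so that 1 probe carries the gene. The probes of Hoxa9 differed in sign, but not with normexp or quantile normalization, and those of Hoxa13 both lay near the floor. Where on the transcripts the probes lie was not examined here.

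The Hoxa and Hoxd medians kept their side of 0 under all settings shown in the plot of medians by processing, and those of Hoxb and Hoxc did not. Over all settings the Hoxa median lay between -0.15 and -0.03 and the Hoxd median between 0.03 and 0.14. The medians over all probes of brightness groups 1, 2 and 3, where the Hoxd probes lie, were also positive under the main scaling. The Hoxb median lay between -0.03 and 0.06 and the Hoxc median between -0.13 and 0.07.

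**Figure D4:**
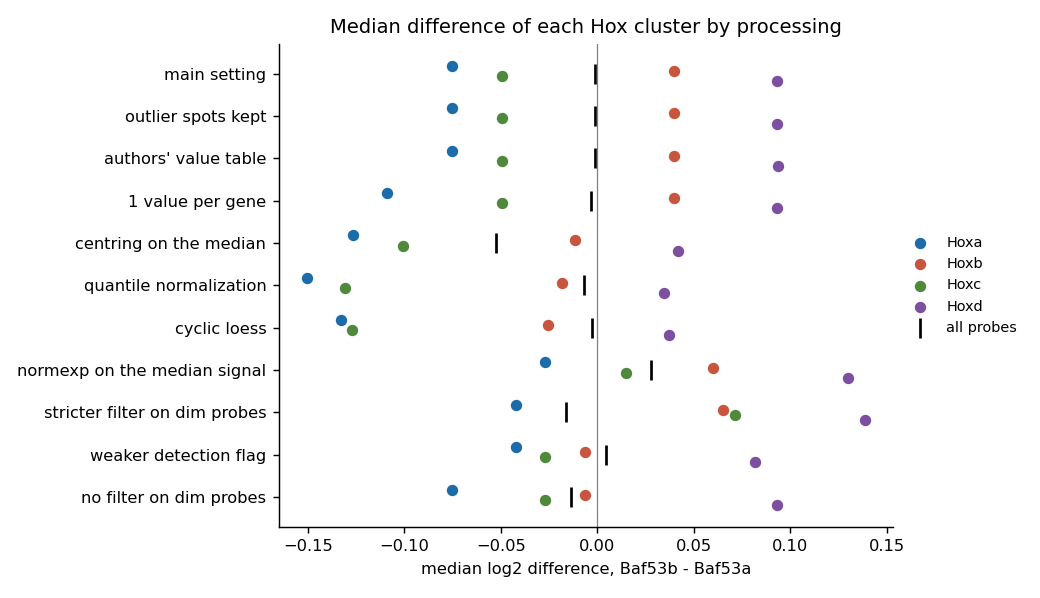
Median log2 difference, Baf53b- minus Baf53a-expressing cells, of the Hox probes of each cluster (coloured points) and of all probes (black ticks) under the main setting and 10 other ways of processing. The Hoxa points stay below 0 and the Hoxd points above 0 throughout, and the Hoxb and Hoxc points change sides.

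The regulators of the Hox clusters were measured on the same arrays, and their lists were chosen with earlier results of these data known. Over all probes 74.2% were well above background on both arrays. Of 12 PRC2 genes, 18 of 19 probes were so, 7 of them higher with Baf53b and 11 lower. Their median was -0.02, and it was 0.02 under quantile normalization and cyclic loess. Ezh2, the methyltransferase, was at -0.07, and Eed, which binds the methylated histone, at -0.004, named here for their roles after the values were seen. The extremes of the list did not hold across probes. Phf1, an accessory subunit, was at -0.66 by one probe and 0.02 by the other, and Rbbp4, a histone-binding subunit, at 0.59 by one and -0.03 by the other. A probe of Ezh1, a second methyltransferase, was well above background in Baf53b-expressing cells only, as were 2.18% of all probes. Its signals were 7.84 with Baf53a and 12.4 with Baf53b, a difference of 0.70 ± 0.56. Its bound of 1.51-fold leaves that error out, and the other probes of Ezh1 were at -0.02 and -0.03.

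Of 20 PRC1 genes, 28 of 29 probes were well above background on both arrays, with 16 higher and 12 lower and a median of 0.04 that was -0.01 with centring on the median. Cbx7, the main chromobox subunit of ES cells, was the lowest, at -0.21, and a probe of Cbx6 the highest, at 0.56, with its other probes at -0.07 and -0.06. All 18 probes of 12 Trithorax genes and H3K27 demethylases were well above background on both arrays and lay between -0.14, at Dpy30, and 0.19, at Kmt2d. Their median was -0.03, and 0.003 under quantile normalization and 0.0005 under cyclic loess. None of these probes was 2-fold apart, as with the Hox genes themselves, and few probes of any kind were. Of all measured probes 0.137% were higher and 0.116% lower by 2-fold or more in Baf53b-expressing cells.

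Partners and upstream factors of Hox proteins were also close to level. TALE homeodomain proteins bind DNA together with Hox proteins. Of 11 such genes 18 of 19 probes were well above background on both arrays, as were 74.2% of all probes. Of the 18, 9 were higher and 9 lower. Their median of 0.01 turned negative under quantile normalization, cyclic loess, centring on the median, normexp and no filter. Meis3 had the highest value, 0.81, by a probe with signals of 16.8 and 28.6, while its other probes were at -0.06 and 0.10. The 7 probes of the ParaHox and Cdx genes, relatives and activators of Hox genes, ran from -0.32 at Gsx1 to 0.18 at Cdx2, with a median of -0.04 that was 0.02 with normexp. The 22 measured probes of the retinoic acid pathway, 11 higher and 11 lower, ran from -0.34 at a probe of Rara to 0.36 at a probe of Rarb, both of them retinoic acid receptors, with a median of 0.002 that was negative under cyclic loess, quantile normalization and centring on the median. The second probes of Rara and Rarb were at -0.15 and 0.15.

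Few other transcripts of the clusters could be measured. Of 17 noncoding RNAs of the clusters, 3 had a probe. Hoxa11os, antisense to Hoxa11, had signals of 347 with Baf53a and 291 with Baf53b, a difference of -0.21 ± 0.20, beside -0.02 at Hoxa11. Gm53, in the Hoxb cluster, was at 0.02, and Hoxd3os1, in the Hoxd cluster, was not well above background in either group, like Hoxd3.

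The coding genes next to each cluster were named from the order of genes in the RefSeq table. At Hoxa, Skap2 was at -0.15 and Evx1, a homeobox gene, at 0.20. At Hoxb, the probes of Ttll6 were at -0.18 and 0.17 and that of Skap1 at -0.08. At Hoxc, Calcoco1 was at -0.12 and Smug1 at -0.15. At Hoxd, the homeobox gene Evx2 was not well above background in either group, and Mtx2 was at -0.14. Over all coding neighbours examined, 24 genes with 41 probes of which 39 were measured, 15 were higher with Baf53b and 24 lower, from -0.20 at Copz1 to 0.38 at a probe of Snx11 whose other probes were at -0.11 and -0.06. Their median of -0.04 kept its sign under every alternative tried. Over all probes 49.7% were higher, and the median was -0.02 in brightness group 4 and -0.06 in group 5. The part of brightness in the values of these neighbours was not tested.

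The Hox genes were set beside 91 other developmental homeobox genes of the kind that Polycomb holds in ES cells, with 109 probes. Of these, 86 (78.9%) were well above background on both arrays, against 86.0% of the Hox probes and 74.2% of all probes. Of the 86, 41 were higher with Baf53b and 45 lower. Their median was -0.01, and 0.05 with normexp, and their SD was 0.219 against 0.213 for the Hox probes. At 0.5 on the log2 scale 3 of the 86 were higher and 0 lower, against 1 and 0 of the 37 Hox probes. Over all probes 2.27% were higher and 0.783% lower by as much. The measured probes of the list ran from -0.39 at Pax8, a gene of the thyroid and kidney, to 0.75 at Dbx1, a gene of spinal interneurons. Of the 109 probes, 2 were well above background in Baf53b-expressing cells only, as were 2.18% of all probes. Among them was a probe of Nkx1-2 with signals of 8.35 with Baf53a and 11.8 with Baf53b, a difference of 0.55 ± 0.53. Its bound of 1.44-fold leaves that error out, and the other probes of Nkx1-2 were at -0.12 and -0.07. None of the measured probes of this list was 2-fold apart. Of all measured probes 0.137% were higher and 0.116% lower by as much. No difference between the Hox probes and this list was tested.

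**Figure D5:**
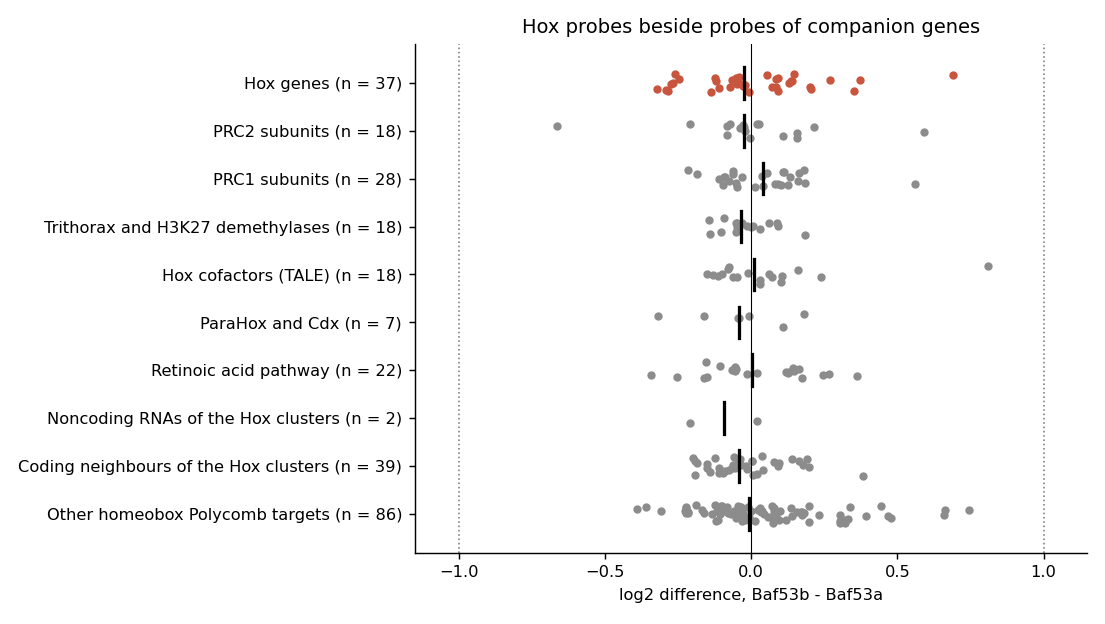
Log2 difference, Baf53b- minus Baf53a-expressing cells, of each probe well above background on both arrays (points) for the 37 Hox probes and the 9 companion lists, with black bars at the medians, several of which change sign under other scalings, and dotted lines at 2-fold. All points lie inside the dotted lines, with Meis3 at 0.81 and Phf1 at -0.66 farthest out.

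Markers of ES cells and of other cell types were looked at too. Their detection alone cannot tell the cell type here, since most probes of every list were detected. All 12 probes of 10 ES cell markers were well above background on both arrays, as were 74.2% of all probes. Their differences ran from -0.15 at Esrrb to 0.07 at Sox2. Signals were also summed over the measured probes of each list, in units of the 75th percentile signal, and each sum is read only against the same sum on the other array, since bright probes dominate it. For the ES cell markers the sum was 350 with Baf53a and 336 with Baf53b. For markers of other cell types the sums were 1.296 and 1.26 for neural progenitors (5 of 6 probes measured), 0.217 and 0.206 for mesoderm (4 of 5), 1.83 and 2.18 for primitive endoderm (5 of 5) and 2.79 and 3.22 for trophoblast (4 of 5). The measured probes of the last pair of lists were all higher in Baf53b-expressing cells, by 0.20 to 0.40 for primitive endoderm and 0.18 to 0.33 for trophoblast, under the main scaling. Over all probes 49.7% were higher by any amount. The difference was smaller than the software error at 1 of the 5 primitive endoderm probes and 3 of the 4 trophoblast probes. The probes of Mixl1 and Elf5 and 1 of those of Pax6 were not well above background in either group. The part of such cells in the values of Hoxd9, Hoxd10 and Hoxd11 was not tested.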

How the data were processed

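The arrays were scanned and read by the authors with Feature Extraction 11.0.1.1, and per the file headers the deposited intensity of a spot is its processed signal, background-subtracted and spatially detrended, on a design annotated on mm9. The flags for detection and outliers and the error of each signal are those the authors deposited. The authors also deposited a value table of 30488 probes, each value a ratio: set against the spots for 30479 probes, it is the processed signal divided by 1 number per array (1160 and 1126), with column medians of 0.257 and 0.262. It names no direction, as it holds levels.

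Control spots were left out here, as were 173 and 143 outlier spots (2 and 0 of Hox probes). Spots of a probe were averaged on the log2 scale, and set against the array's 75th percentile. No spot was saturated. Of the probes, 75.2% and 76.4% were well above background on the arrays of Baf53a- and Baf53b-expressing cells, and the number of arrays, 1 per group, limits the precision. A GRCm38.p6 gene table gave probes their names by RefSeq accession, 27410 of them in all, and was used for names and gene order only. The error of a difference combines the software errors of both arrays.

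The Hox genes, the companion and marker lists, the thresholds and the alternatives were chosen with earlier results of these data known. By the rule used, each Hox gene well above background on at least 1 array is named with its values, and of each companion list the highest and lowest members, any past 2-fold and those at a Hox cluster. A few genes are not reported singly, although counts and medians include them. The alternatives were cyclic loess, quantile normalization, centring on the median, normexp with an offset of 50 on the median signal, outlier spots kept, the flag required on all spots, a weaker flag, no filter, a stricter filter (above the 25th percentile of detected probes), 1 value per gene, the value table and a threshold of 0.5. Python 3.11.15, numpy 2.4.6, pandas 2.3.3, R 4.3.3 and limma 3.58.1 were used, and the steps were tested on simulated data.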

Additional observations from a re-analysis of the deposited data

How the results depend on the processing

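No paired analysis was possible because each group has 1 array, and for the same reason no replicate could be left out and no slide fitted as a block. The number of Hox probes 2-fold apart, 0, became 1 without a filter on dim probes, through a probe that was not well above background, and 1 at the threshold of 0.5, through Hoxd9. With the weaker detection flag 0 Hox probes instead of 4 were on neither array and 41 instead of 37 on both, and 1 instead of 0 Hox probes seen on 1 array was 2-fold apart by its lower bound. The stricter filter left 15 of the 37 Hox probes, 9 higher and 6 lower in Baf53b-expressing cells, since most Hox probes are dim. With normexp 25 were higher and 12 lower, against 16 and 21, and the cause was not tested. The mesoderm list went from 0 to 1 probe 2-fold apart without a filter, through Mixl1. The median difference of all probes moved from -0.001 to -0.05 with centring on the median and to 0.03 with normexp.

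Single Hox probes moved by more than 0.132, the SD of a difference between single spots, in 8 of 37 cases with normexp and 3 of 37 with quantile normalization, and in 0 under the other settings. Their sign turned in 9 cases with normexp, 2 with quantile normalization and 2 with cyclic loess. With normexp Hoxa5, Hoxa6 and Hoxa10 came to -0.07, -0.03 and -0.04, Hoxd11 to 0.13 and Hoxd9 to 0.31. Normexp was run with an offset of 50 added to each signal, which by construction makes the log2 differences of dim probes smaller. The part of the offset in these values was not tested. Of the 37 Hox probes 14 and 13 lay in the 2 dimmest of 5 groups, so that signal over background limits their values.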
